A study of Homo sapiens with 6 samples.

Results

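The 10 PDZ scaffold genes, PDZD2, PARD3, PARD3B, MAGI1, MAGI2, MAGI3, DLG1, DLG2, PATJ and TJP1, were examined for the DNA they leave on the nuclear matrix. They are 10 of the 20033 protein-coding genes in the gene table used here. PDZD2 was selected on its gain of regions from shLUC to shHNRNPU, and the other 9 genes were added as relatives that code for scaffolds with PDZ domains. A region belonged to a gene when it overlapped the gene body by at least 1 bp. By this rule the 10 genes held 98 of the 40106 regions of the hPSC list, 95 of the 39368 regions of the shLUC list and 99 of the 36277 regions of the shHNRNPU list.

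The cells were H1, an established line of human pluripotent stem cells, grown without feeder cells. MAR-seq was used to find stretches of DNA held by the nuclear matrix, the network that stays in a nucleus after soluble material is extracted with detergent. There were 3 groups of 2 samples each: cells without treatment (hPSC), cells given an shRNA that targets HNRNPU, the gene of an RNA-binding matrix protein (shHNRNPU), and cells given an shRNA that targets LUC, taken here as the control hairpin (shLUC). The labels give neither the number of hairpin sequences nor the level of HNRNPU left, and no expression value was used here to check the knockdown. Each group came as 1 list of regions. The spread between the samples of a group is therefore unknown, no difference below was tested, and intervals on shares are exact binomial 95% intervals that cover counting error only. Read depth is unknown.

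PDZ domains are small folds that bind the C-terminal tails of membrane proteins. Proteins with several of them hold receptors, adhesion molecules and polarity kinases together at one place under the membrane. In epithelia and in pluripotent cells, which form a polarised sheet, the Par, Crumbs and Scribble groups of such proteins divide the apical from the basolateral surface. The zonula occludens proteins are scaffolds of the tight junction between these surfaces. Many of the genes are long and consist mostly of introns. A region here is a position on DNA that stayed with the matrix, and says nothing on its own about transcription of the gene.

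The promoters are shown first, since the matrix map differed between the lists at the starts of several of these genes. The RefSeq promoter table (GRCh38.p14) held 23 windows of 300 bases for 8 of the 10 genes, each from 250 bases before to 50 bases after an annotated start. PDZD2 and PARD3 had no entry. A region of at least 1 list overlapped 12 of the 23 windows. The 6 windows below were chosen to show each kind of case. These are a window overlapped in both hairpin lists, a window overlapped in shLUC alone and windows overlapped in hPSC alone. Regions of the other lists can lie just outside a window. Each runs 5′ to 3′ on the strand of its gene, and the bases in capitals lie in a region of the list named.

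PATJ, chr1:61742230-61742529, plus strand, capitals for shLUC and shHNRNPU: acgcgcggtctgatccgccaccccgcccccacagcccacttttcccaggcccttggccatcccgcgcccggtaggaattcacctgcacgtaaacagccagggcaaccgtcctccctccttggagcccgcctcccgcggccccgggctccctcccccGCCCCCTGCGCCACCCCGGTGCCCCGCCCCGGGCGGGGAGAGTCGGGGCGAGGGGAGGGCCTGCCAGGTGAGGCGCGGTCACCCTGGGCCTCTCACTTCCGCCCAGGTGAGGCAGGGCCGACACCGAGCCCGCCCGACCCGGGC
DLG2, chr11:84437757-84438056, minus strand, capitals for shLUC: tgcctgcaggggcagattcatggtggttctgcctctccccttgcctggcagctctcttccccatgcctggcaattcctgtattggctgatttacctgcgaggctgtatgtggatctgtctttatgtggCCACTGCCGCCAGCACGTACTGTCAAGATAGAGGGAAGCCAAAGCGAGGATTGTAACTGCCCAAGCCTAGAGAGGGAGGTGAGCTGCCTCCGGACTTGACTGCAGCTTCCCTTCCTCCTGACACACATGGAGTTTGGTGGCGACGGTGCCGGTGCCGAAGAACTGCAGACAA
DLG2, chr11:84317288-84317587, minus strand, capitals for hPSC: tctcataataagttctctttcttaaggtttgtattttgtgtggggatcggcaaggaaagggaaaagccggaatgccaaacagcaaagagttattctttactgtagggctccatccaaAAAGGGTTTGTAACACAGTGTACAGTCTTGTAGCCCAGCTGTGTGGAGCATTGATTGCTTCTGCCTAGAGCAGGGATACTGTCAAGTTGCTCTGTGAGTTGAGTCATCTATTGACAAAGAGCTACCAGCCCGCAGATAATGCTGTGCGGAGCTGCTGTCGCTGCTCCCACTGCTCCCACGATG
MAGI2, chr7:79453618-79453917, minus strand, capitals for hPSC: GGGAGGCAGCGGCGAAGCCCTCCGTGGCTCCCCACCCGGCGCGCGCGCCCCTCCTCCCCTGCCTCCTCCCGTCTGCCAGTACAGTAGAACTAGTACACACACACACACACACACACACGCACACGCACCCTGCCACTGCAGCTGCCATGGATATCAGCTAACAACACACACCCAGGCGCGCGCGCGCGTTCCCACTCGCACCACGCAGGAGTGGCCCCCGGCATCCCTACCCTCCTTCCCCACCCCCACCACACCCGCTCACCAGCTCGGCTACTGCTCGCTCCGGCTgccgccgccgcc
MAGI3, chr1:113390265-113390564, plus strand, capitals for hPSC: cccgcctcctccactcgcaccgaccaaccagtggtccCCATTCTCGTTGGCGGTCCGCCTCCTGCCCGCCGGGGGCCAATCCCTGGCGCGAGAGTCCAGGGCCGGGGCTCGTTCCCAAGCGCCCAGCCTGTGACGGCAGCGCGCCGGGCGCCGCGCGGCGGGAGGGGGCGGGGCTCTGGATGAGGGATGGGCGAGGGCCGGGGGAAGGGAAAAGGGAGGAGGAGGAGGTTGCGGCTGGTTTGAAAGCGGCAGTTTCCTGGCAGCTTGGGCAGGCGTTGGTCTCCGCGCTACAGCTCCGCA
TJP1, chr15:29969000-29969299, minus strand, capitals for hPSC: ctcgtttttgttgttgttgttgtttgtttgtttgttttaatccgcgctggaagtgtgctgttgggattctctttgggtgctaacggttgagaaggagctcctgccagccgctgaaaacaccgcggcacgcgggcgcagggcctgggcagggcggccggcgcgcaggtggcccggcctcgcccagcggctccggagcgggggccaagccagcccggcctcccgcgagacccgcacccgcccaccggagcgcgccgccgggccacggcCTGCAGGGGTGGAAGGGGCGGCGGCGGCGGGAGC

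The PATJ window was covered over 144 bases by a region at chr1:61742386-61742785 with identical coordinates in both hairpin lists, and the nearest hPSC region was centred at -17.34 kb, before that start. PATJ codes for a multi-PDZ partner of the Crumbs complex. The DLG2 window at an inner start was covered over 172 bases in shLUC, whereas the nearest shHNRNPU region was centred 7.45 kb inside it and the nearest hPSC region was centred at -105.87 kb, far before it. The other DLG2 window shown was covered over 183 bases in hPSC alone. DLG2 codes for a guanylate kinase-like scaffold of the postsynaptic density.

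The MAGI2 and MAGI3 starts were covered over 288 and 263 bases in hPSC. In MAGI3 the region of both hairpin lists lay just beyond the window, with its centre 0.532 kb inside the start, so hPSC and the hairpin lists marked different bases around that start. At the outer TJP1 start only 34 bases of the window lay in the hPSC region. The shHNRNPU region overlapped that hPSC region and lay 0.038 kb further in, with its centre 0.254 kb from the start, while the nearest shLUC region was centred at -23.05 kb, before it. TJP1 codes for ZO-1, the zonula occludens protein that ties tight junction strands to actin.

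In all, hPSC regions overlapped 9 of the 23 windows (39.1%), shLUC regions 3 (13.0%) and shHNRNPU regions 1 (4.35%). Over all 22198 windows of the table the shares were 29.8%, 15.6% and 16.6%. Counted by gene, 5 of 8 genes had a window with a region in hPSC, 3 in shLUC and 1 in shHNRNPU. Over 15842 genes the shares were 36.4%, 19.4% and 20.6%. The member counts depend on where the window ends. Within 1 kb of a start, 5 genes had an hPSC region, 5 a shLUC region and 4 a shHNRNPU region. That wider count was not made over all genes. Windows of one gene lie close together and can share a region, as 3 of the 4 DLG1 windows with an hPSC region did, so they are not independent.

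The DNA had been cut with 6 restriction enzymes before sequencing, and the windows were searched on both strands for their sites: CCGG for MspI, GGCC for HaeIII, GTAC for RsaI, AGCT for AluI, GGATCC for BamHI and CAGCTG for PvuII, each of which also holds an AluI site. The windows of the 8 genes held a median of 7 sites (lowest 2, highest 15), and all windows also a median of 7. The PATJ window held 11 sites, the DLG2 windows 7 and 5, the MAGI2 and MAGI3 windows 9 each and the TJP1 window 15. Over all windows the share with a site was 74.0% for MspI, 84.3% for HaeIII, 28.0% for RsaI, 73.6% for AluI, 7.22% for BamHI and 18.0% for PvuII. Windows with a region held more sites, with a median of 8 in hPSC and 9 in either hairpin list, beside 6 in windows with no region in any list. Their median GC content was 65.7%, 71.3% and 71.3%, beside 58.0%. The part of site number and base composition in the regions was not tested.

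**Figure D1:**
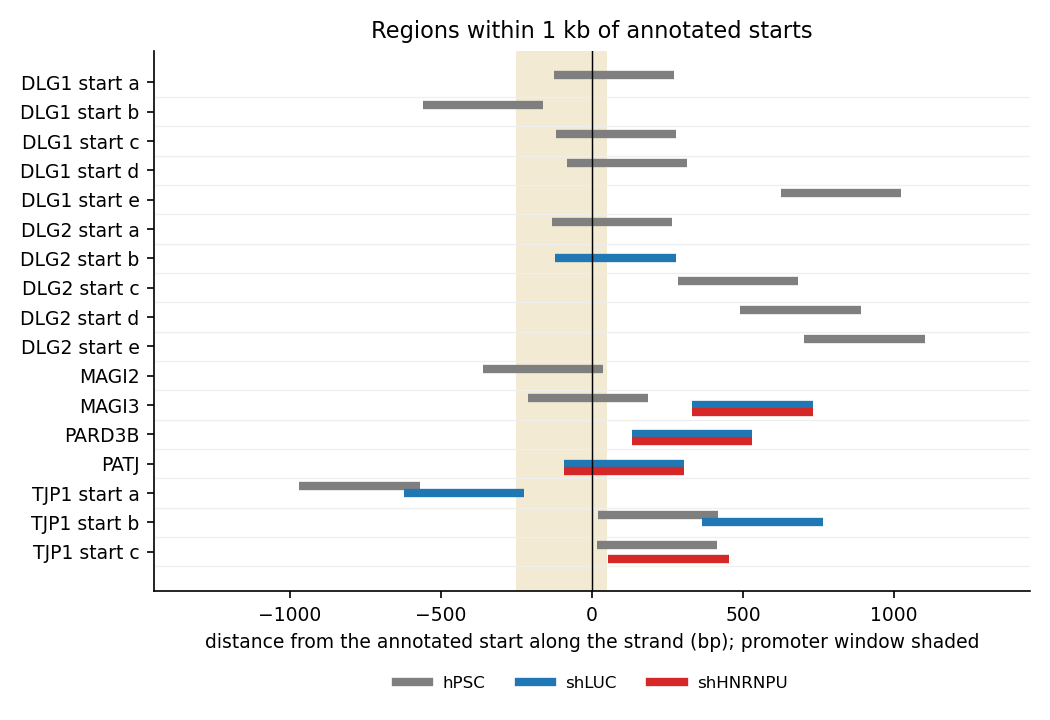
Regions within 1 kb of annotated starts of the 7 genes that had one. The x axis gives the distance from the start in bp along the strand, and each bar is a region of 400 bp. The shaded band is the promoter window from 250 bp before to 50 bp after the start. Bars of hPSC were found at 14 starts of 5 genes, shLUC bars at 6 starts of 5 genes and shHNRNPU bars at 4 starts of 4 genes.

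PARD3B was similar to MAGI3 at its start in the hairpin lists, but not in hPSC, where only MAGI3 had a region across the start. A region at identical coordinates in both hairpin lists was centred 0.331 kb inside the PARD3B start, and the nearest hPSC region was centred 24.9 kb inside it. Among the 8 genes with a known strand, PATJ, MAGI3 and PARD3B were the 3 whose first kilobase was marked at the same bases with either hairpin. For PDZD2 and PARD3 the strand is not used here, so their ends cannot be called starts. Both hairpin lists held an identical region at an end of each, at chr5:31638934-31639333 across the lower end of PDZD2 and at chr10:34814873-34815272 by the upper end of PARD3.

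PDZD2 (chr5:31639131-32110932, 472 kb) codes for a protein with several PDZ domains. It held 7 regions in hPSC, 12 in shLUC and 18 in shHNRNPU, which is 1.48, 2.54 and 3.82 regions per 100 kb. The gain of 6 was the largest of any protein-coding gene, and the gene was chosen by it. The next genes outside that threshold gained 5, namely HS3ST4 with 5 regions in shLUC and 10 in shHNRNPU, and TTC28 with 13 and 18, and 12 genes gained 4. In the shHNRNPU list 13 of the 1399 protein-coding genes of at least 200 kb had more regions per 100 kb than PDZD2, beside 146 in the shLUC list and 566 in the hPSC list.

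The hairpin lists shared 10 regions in PDZD2, at identical coordinates. The first of these, at chr5:31638934-31639333, spanned the lower end of the gene, and the last, at chr5:31985588-31985987, lay in its upper-middle part. Only 2 shLUC regions were missing from shHNRNPU, at chr5:31852018-31852417 and chr5:32103476-32103875. A further 8 regions were in shHNRNPU and not in shLUC. They began at positions 31653736, 31664404, 31788263, 31871393, 31898992, 32040579, 32046476 and 32090630 of chromosome 5.

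The new regions were spread along the gene rather than gathered at one place. Measured from the lower end, 2 lay within the first 26 kb (14.8 and 25.5 kb), 3 in the middle (149, 232 and 260 kb) and 3 near the upper end (402, 408 and 452 kb). The 3 upper ones fell into what was the longest empty stretch of the gene in shLUC, 117 kb between chr5:31985987 and chr5:32103476. With them the longest gap of PDZD2 was 60.2 kb in shHNRNPU, and its gaps had a median of 24.0 kb, in place of 33.0 kb in shLUC. Of the 10 equal parts of the gene, 4 held more regions in shHNRNPU than in shLUC and 0 held fewer.

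No new region lay near an old one. The centre of each of the 8 lay between 6.76 and 57.0 kb from the nearest shLUC region, with a median of 20.1 kb. Over all 10 genes the 29 regions found in shHNRNPU and not in shLUC lay 6.76 to 106 kb from the nearest shLUC region, with a median of 32.5 kb, and 0 lay within 5 kb. The 70 regions shared by the hairpin lists were all identical, and no further pair came within 1 kb. How these lists were made is not given, so the distances do not show that the sites were new.

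The stretches on either side of PDZD2 moved the other way. In flanks of 236 kb on each side, shLUC held 11 regions, 6 below and 5 above the gene, and shHNRNPU held 4, 1 below and 3 above. All 4 were also shLUC regions, so the flanks lost 7 regions and gained 0 while the body lost 2 and gained 8. In hPSC the flanks held 7 regions and the body 7. Among the protein-coding genes of at least 200 kb, 357 had more regions in the body in shHNRNPU than in shLUC, and 46.8% of these had fewer in the flanks, so a body and its flanks that differ in direction were common. Over all genes of this length the flanks held fewer regions in shHNRNPU, with a change of -8.14%.

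**Figure D2:**
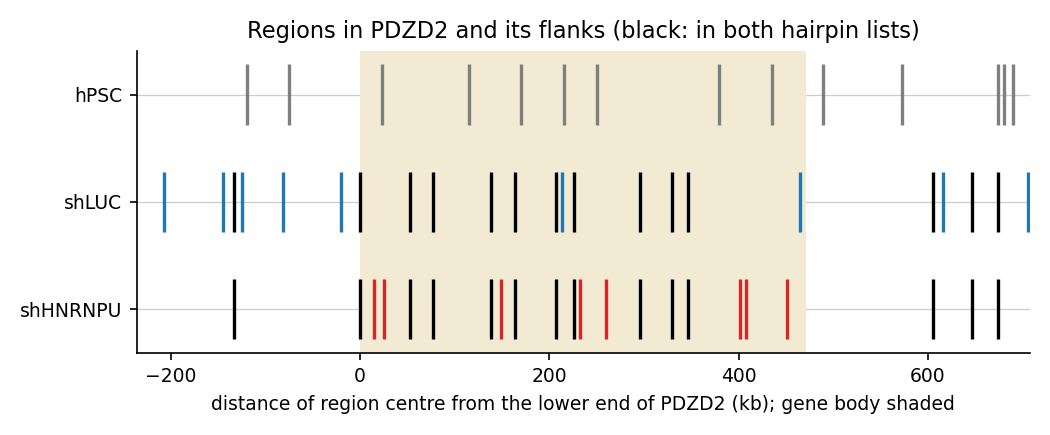
Regions in PDZD2 and its flanks in the 3 lists. The x axis gives the distance of each region centre from the lower end of the gene in kb, the gene body is shaded, black lines are regions in both hairpin lists, blue lines shLUC alone, red lines shHNRNPU alone and grey lines hPSC; the 8 red lines all lie within the gene, and 7 of the 9 blue lines lie outside it.

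Of the 8 other protein-coding genes within 500 kb of PDZD2, 3 held fewer regions in shHNRNPU than in shLUC and 0 held more. Among all protein-coding genes with a region in either hairpin list, 30.3% held fewer and 22.5% more. GOLPH3, C5orf22 and LOC107986346 held no region in either hairpin list. Genes of that kind are left out of these shares, so the 8 are not on the same base. The regions missing from DROSHA and MTMR12 lay in the PDZD2 flanks and were already counted there, so they are not a separate observation. DROSHA, which codes for the nuclease that starts microRNA processing, held 1 region in hPSC, 4 in shLUC and 1 in shHNRNPU. MTMR12, a myotubularin relative, held 1, 4 and 3 regions, and ZFR, a zinc finger RNA-binding protein, held 3, 1 and 0. CDH6, a cadherin, held 3, 1 and 1 and SUB1, a transcription coactivator, held 1 in each list. GOLPH3, a Golgi protein, held 1, 0 and 0, while C5orf22 and LOC107986346, which lies within PDZD2, held none in any list (0 regions).

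The hPSC regions of PDZD2 were at other places. They began at positions 31662193, 31753973, 31809153, 31854620, 31889271, 32018230 and 32074443, and 0 of the 7 overlapped a region of either hairpin list. Their distance to the nearest hairpin region was between 2.21 and 23.1 kb, with a median of 9.72 kb. Such overlap was rare in general, since in protein-coding genes of at least 200 kb 13.0% of hPSC regions overlapped a shLUC region and 14.7% a shHNRNPU region, and 4 other genes of the 10 also had 0.

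The relatives of PDZD2 differed in both directions. Of the 10 genes, 5 held more regions in shHNRNPU than in shLUC (PDZD2, DLG1, DLG2, PATJ and TJP1), 4 held fewer (PARD3, PARD3B, MAGI1 and MAGI2) and MAGI3 held the same number. The shHNRNPU list as a whole differed from the shLUC list by -7.85% in number of regions, and when counts were divided by the list totals 7 genes were higher and 3 lower, with MAGI1 and MAGI3 among the higher. Among all protein-coding genes with a region in either list, 22.5% held more and 30.3% fewer, and among those of at least 100 kb, the length class of all 10 genes, 26.1% held more and 41.1% fewer. Since PDZD2 entered by its gain, nothing is read from the 5 against these shares. Only PDZD2 differed by at least 2 regions and 1.5-fold upwards, and 0 genes did so downwards. The shares for this stricter rule were 2.47% up and 5.56% down among all protein-coding genes and 4.66% and 12.0% among those of at least 100 kb.

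Summed over the genes, the number of regions went from 95 in shLUC to 99 in shHNRNPU, a change of 4.21%. Without PDZD2 it went from 83 to 81, a change of -2.41%. The change was -6.81% over all protein-coding genes and -8.24% over those of at least 200 kb. Per 100 kb the 10 genes together held 1.26 regions in hPSC, 1.22 in shLUC and 1.27 in shHNRNPU, close to the 1.26, 1.32 and 1.21 of protein-coding genes of at least 200 kb. The median difference per gene was 0.5 regions with PDZD2 and 0 without it, and 0 over all protein-coding genes.

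**Figure D3:**
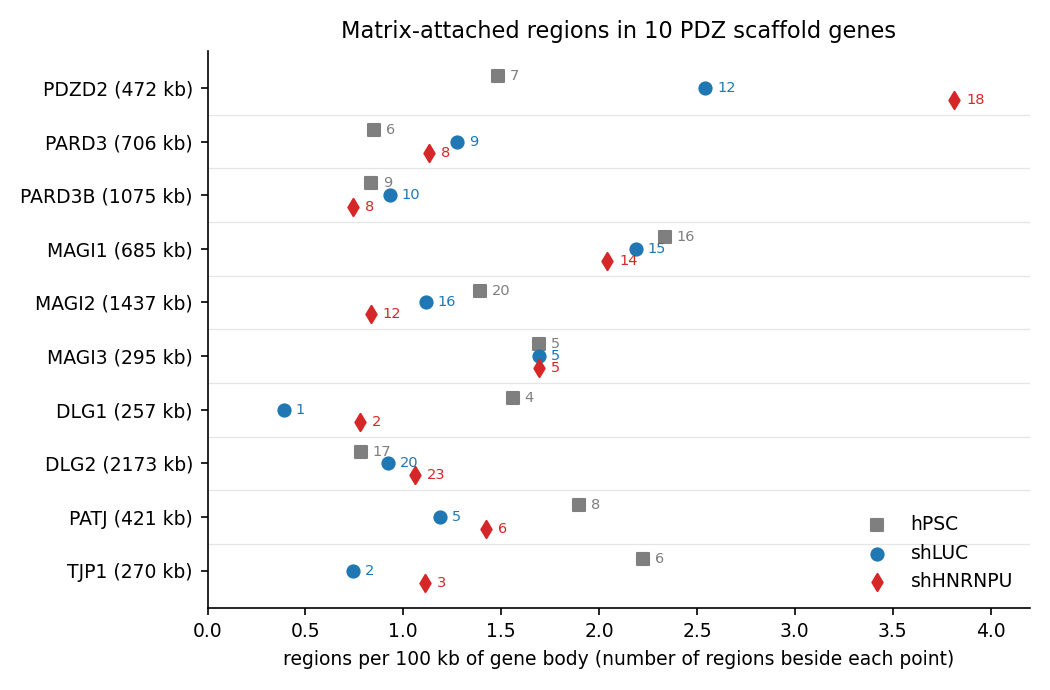
Regions per 100 kb of gene body in the 10 genes and 3 lists. The x axis gives regions per 100 kb, each point is 1 list with its number of regions beside it, and gene lengths are given with the names; PDZD2 lies at 1.48 in hPSC, 2.54 in shLUC and 3.82 in shHNRNPU, and the highest point of any other gene is that of MAGI1 in hPSC at 2.33.

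**Figure D4:**
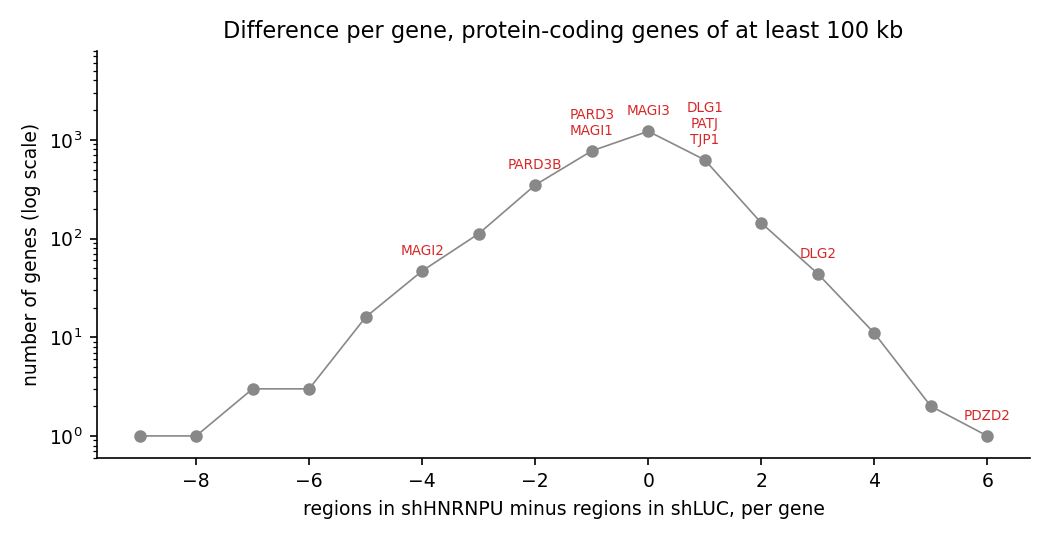
Difference in region number between shHNRNPU and shLUC for 3356 protein-coding genes of at least 100 kb, including those with no region. The x axis gives the difference in regions per gene and the y axis the number of genes on a log scale; PDZD2 stands alone at 6, DLG2 at 3 and MAGI2 at -4 lie on the slopes, and the other 7 genes lie between -2 and 1.

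The Par polarity genes held slightly fewer regions in shHNRNPU. PARD3 (chr10:34109561-34815296, 706 kb) codes for the scaffold that binds the atypical protein kinase C of the Par complex. It held 6 regions in hPSC, 9 in shLUC and 8 in shHNRNPU. The hairpin lists shared 6 of them, 3 were in shLUC alone and 2 in shHNRNPU alone. PARD3B (chr2:204545475-205620162, 1075 kb), its paralog, held 9, 10 and 8 regions, with 7 shared between the hairpin lists, 3 in shLUC alone and 1 in shHNRNPU alone. The last shLUC region of PARD3B, at chr2:205584388-205584787, was the only hairpin-list region in the upper part of the gene beyond a gap of 329 kb, and it was absent in shHNRNPU. The flanks of these genes also held fewer regions, with 17 in shLUC and 12 in shHNRNPU around PARD3 and 17 and 11 around PARD3B.

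The 3 MAGI genes code for membrane-associated guanylate kinases with inverted domain order, which bind adhesion proteins at junctions and, for MAGI2, at synapses as well. MAGI1 (chr3:65353526-66038918, 685 kb) held 16 regions in hPSC, 15 in shLUC and 14 in shHNRNPU and was the most densely marked relative in the hairpin lists, at 2.19 and 2.04 regions per 100 kb. Its hairpin lists shared 12 regions. Both regions found in shHNRNPU alone lay side by side, at chr3:65596971-65597370 and chr3:65597994-65598393, with a gap of 0.623 kb. The second of them overlapped an hPSC region.

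MAGI2 (chr7:78017055-79453667, 1437 kb) had the largest difference in the other direction. It held 20 regions in hPSC, 16 in shLUC and 12 in shHNRNPU, which is 1.39, 1.11 and 0.84 per 100 kb. The hairpin lists shared 9, and 7 were in shLUC alone and 3 in shHNRNPU alone. Of the 7 regions in shLUC alone, 2 lay in the lower part of the gene, at chr7:78086402-78086801 and chr7:78245851-78246250, and without them shHNRNPU had no region over 538 kb, between chr7:78045212 and chr7:78583198. The longest gap in shLUC was 337 kb. The other 5 began at positions 78855276, 78860902, 78936519, 79045529 and 79235211. Of the 3178 protein-coding genes of at least 100 kb with a region in either hairpin list, 71 held at least 4 regions fewer in shHNRNPU. Genes of at least 100 kb had a median length of 175 kb, so they are not matched to MAGI2 in length. The MAGI2 flanks did not follow the body, with 21 regions in shLUC and 24 in shHNRNPU.

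MAGI3 (chr1:113390515-113685923, 295 kb) was the same in both hairpin lists. It held 5 regions in each of the 3 lists, and all 5 of shLUC were found in shHNRNPU at identical coordinates, whereas 0 of the 5 hPSC regions overlapped them.

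DLG2 (chr11:83455012-85628373, 2173 kb) was the longest gene and the one with the second largest gain. It held 17 regions in hPSC, 20 in shLUC and 23 in shHNRNPU, with 16 shared between the hairpin lists, 4 in shLUC alone and 7 in shHNRNPU alone. Its density stayed low, at 0.78, 0.92 and 1.06 regions per 100 kb. Of the 7 new regions, 6 lay in the lower-coordinate 40% of the gene, which is the 3′ side since DLG2 is on the minus strand. A pair of them began at positions 84061000 and 84066681, and the others at 83587823, 83776424, 83999312, 84308717 and 85132913. The lower-coordinate side of the midpoint held 15 of 20 regions in shLUC and 18 of 23 in shHNRNPU, but 8 of 17 in hPSC. A stretch of 504 kb, from chr11:84522251 to chr11:85026492, had no region in either hairpin list. Of the 3178 protein-coding genes of at least 100 kb with a region in either hairpin list, 58 held at least 3 regions more in shHNRNPU. These genes are mostly far shorter than DLG2. The DLG2 flanks held 37 regions in both hairpin lists.

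DLG1 (chr3:197042560-197299321, 257 kb), a basolateral polarity scaffold of the Scribble group, held 4 regions in hPSC, 1 in shLUC and 2 in shHNRNPU. The single shLUC region was kept, and the added one was at chr3:197250464-197250863. PATJ (chr1:61742480-62163915, 421 kb) held 8, 5 and 6 regions, with 3 shared between the hairpin lists. TJP1 (chr15:29699367-29969049, 270 kb) held 6, 2 and 3 regions and shared 1 between them. In these 3 genes shHNRNPU held 1 region more than shLUC, and in each of them hPSC held the most regions.

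**Figure D5:**
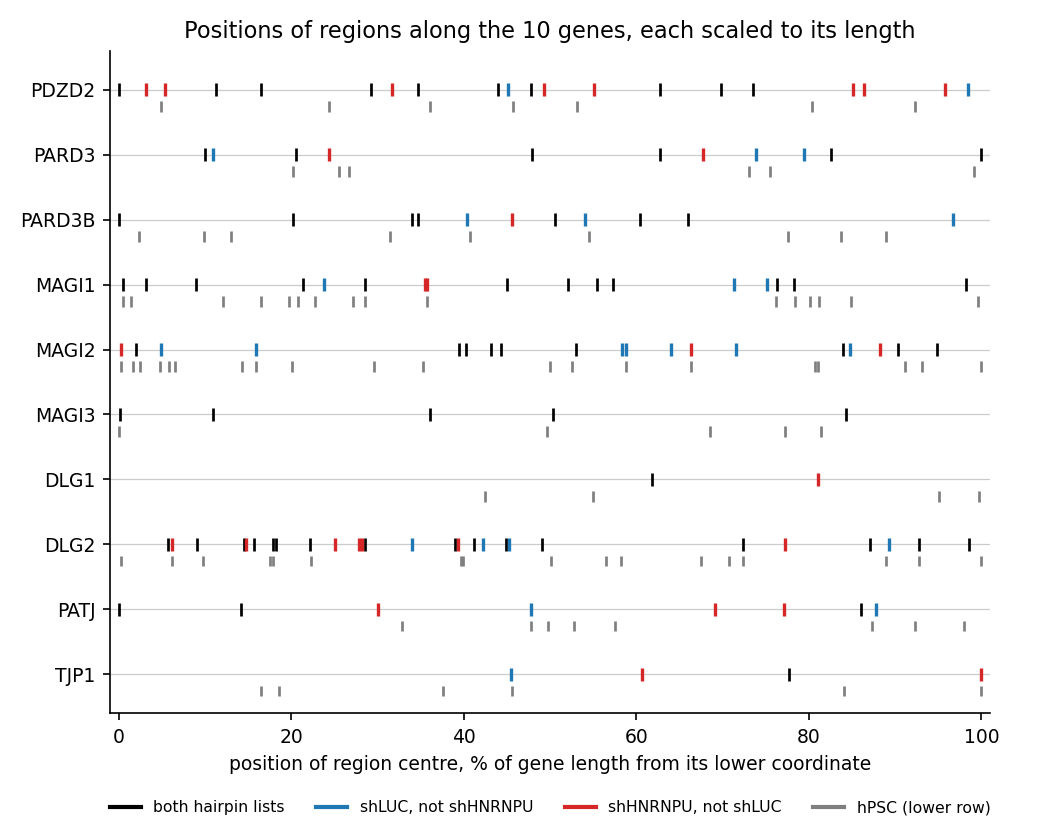
Positions of the regions along the 10 genes. The x axis gives the region centre in percent of gene length from the lower coordinate; black lines are in both hairpin lists, blue in shLUC alone, red in shHNRNPU alone, and the lower row of grey lines is hPSC. MAGI3 has black lines alone, PDZD2 has 8 red and 2 blue lines, and MAGI2 has 3 red and 7 blue lines.

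The turnover behind these counts was larger than the net changes. Of the 95 shLUC regions in the 10 genes, 70 were found in shHNRNPU (73.7%, interval 63.6 to 82.2%), all 70 at identical coordinates. Of the 99 shHNRNPU regions, 70 were found in shLUC (70.7%, interval 60.7 to 79.4%). Neither share changed when identical coordinates were required or when regions within 1 kb counted as shared. How the hairpin lists were made is not given, so identical coordinates do not show that each list found the site on its own. The shares in protein-coding genes of at least 200 kb were 71.3% and 77.7%. Without PDZD2 they were 72.3% and 74.1% in the remaining genes. The net change of 4 regions was thus made up of 25 regions in shLUC alone and 29 in shHNRNPU alone.

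The hPSC list shared few positions with the hairpin lists in these genes. Of its 98 regions, 7 overlapped a shLUC region (7.14%, interval 2.92 to 14.2%) and 8 a shHNRNPU region (8.16%, interval 3.59 to 15.5%). In protein-coding genes of at least 200 kb the shares were 13.0% and 14.7%. With identical coordinates required, the shares of the 98 regions were 2.04% and 3.06%. Most hPSC overlaps were thus shifted, unlike those between the hairpin lists, so the 2 kinds of share are not like measures. In total 12 hPSC regions overlapped a region of at least 1 hairpin list, 4 of them in MAGI2, 3 in MAGI1, 2 in DLG2, 2 in TJP1 and 1 in PATJ. In the other 5 genes there were 0.

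Only 3 positions were marked in all 3 lists. They were in MAGI1, with hairpin regions that began at positions 65356659 and 65548851 of chromosome 3, and in DLG2, with a hairpin region that began at position 83842379 of chromosome 11. Of the regions found in shHNRNPU alone, 5 of 29 overlapped an hPSC region, and of those in shLUC alone 4 of 25 did, while 3 of the 70 regions in both hairpin lists did (17.2%, 16.0% and 4.29%). Over genes of at least 200 kb these shares were 28.6%, 14.9% and 11.7%. Of the 8 new regions of PDZD2, 0 overlapped an hPSC region.

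The difference between the 2 control lists gives a measure of how far region numbers can differ with HNRNPU not targeted. Both comparisons use the same shLUC list, but they are unlike in overlap. In protein-coding genes of at least 200 kb, 13.0% of hPSC regions overlapped a shLUC region, while 71.3% of shLUC regions were found in shHNRNPU. How the lists were made is not given, so these shares are not like measures. From shLUC to hPSC, 5 of the 10 genes held more regions (MAGI1, MAGI2, DLG1, PATJ and TJP1), 4 fewer (PDZD2, PARD3, PARD3B and DLG2) and MAGI3 the same number. Among protein-coding genes with a region in either of these lists 41.1% held more and 36.1% fewer in hPSC, and among those of at least 100 kb 38.6% and 43.6%. In PDZD2, hPSC held 5 regions fewer than shLUC, and shHNRNPU held 6 more than shLUC. In MAGI2, DLG1, TJP1, PATJ, PARD3, DLG2 and MAGI1 the 2 control lists differed by 4, 3, 4, 3, 3, 3 and 1 regions, which was as many as or more than shHNRNPU and shLUC differed by in the same gene. In PARD3B they differed by 1 region, fewer than the 2 between shHNRNPU and shLUC, and in MAGI3 all 3 lists were equal. These are sizes without direction. The share of all genes in which the control lists differ by as much was not counted, so nothing is read from the members. Treatment with a hairpin and separate preparation of the lists cannot be told apart in the hPSC comparison.

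Regions near gene ends were few, as in other long genes. Within 5 kb of an end lay 9.18% of the hPSC regions of the 10 genes, 6.32% of the shLUC regions and 8.08% of the shHNRNPU regions, beside 10.4%, 9.37% and 10.0% in genes of at least 200 kb. In the 8 genes with a known strand, 38 regions lay in the start-side part and 47 in the end-side part of the gene, split at the midpoint, in hPSC. The numbers were 35 and 39 in shLUC and 33 and 40 in shHNRNPU. Over all flanks, 7 of the 10 genes had fewer flank regions in shHNRNPU than in shLUC, 2 more and 1 the same number. Among protein-coding genes of at least 200 kb with a flank region in either list, 46.6% had fewer and 27.4% more. The sum over the 10 genes went from 137 to 118, and without PDZD2 from 126 to 114.

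A wider list of 71 polarity, junction and other PDZ genes was also counted. Of 62 that held a hairpin-list region, 11 held more in shHNRNPU (17.7%), 20 fewer (32.3%) and 31 the same number. Over all protein-coding genes 22.5% held more and 30.3% fewer, and among those of at least 100 kb 26.1% and 41.1%. Neither set matches the list in length. Its median was 93.5 kb, with 33 genes of at least 100 kb, beside a median of 24.1 kb over all protein-coding genes. Their 184 shLUC regions became 168. The list held 17 partners of the Crumbs, Par and Scribble groups. Of the 15 with a hairpin-list region, 2 held more, 3 fewer and 10 the same number. Of 18 tight junction and membrane-associated guanylate kinase genes, 13 had such a region, and 4 held more, 4 fewer and 5 the same number. Of 36 other PDZ genes 34 had one, and the numbers were 5, 13 and 16. The 4 genes that differed by at least 3 regions were AFDN, SHANK2, PTPN3 and APBA2. AFDN, which codes for the junction protein afadin, held 1 region in shLUC, 4 in shHNRNPU and 5 in hPSC. SHANK2, a postsynaptic scaffold, held 16, 13 and 15. PTPN3, a tyrosine phosphatase with a PDZ domain, held 5, 2 and 2. APBA2, an adaptor that binds the amyloid precursor protein, held 11, 7 and 10.

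The genes most like PDZD2 across the 3 lists are given as a description. Likeness was taken as the Euclidean distance between regions per 100 kb in the 3 lists, over protein-coding genes of at least 200 kb. The measure uses the lists by which PDZD2 was chosen, so the nearest genes also gain by its design. Nothing is read from that gain or from their families. VAV2 was nearest at a distance of 0.21, with 3 regions in hPSC, 6 in shLUC and 9 in shHNRNPU. CPEB3, an RNA-binding regulator of translation, followed at 0.57 with 4, 6 and 8 regions. GRIK4, a kainate receptor subunit, came next at 0.61 with 9, 12 and 16.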

How the data were processed

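MAR-seq had been made in 6 samples in 3 groups, 2 samples each, of H1 cells. Per the labels, nuclei were extracted with detergent, fixed with formaldehyde and digested with 6 restriction enzymes, and matrix DNA and a sonicated input were sequenced as paired-end reads. The submitters' processing notes name cutadapt, Bowtie2, SAMtools, MACS2 and deepTools with build hg38, without versions. How 2 samples gave 1 list, and the calling threshold, are not given in the sources used here. The region names of the hPSC list carry the tag rp1, whose meaning is not given either. The deposited lists hold positions only: each region is 400 bp wide, and the deposited score is 0 in every row and was not used. Depth is unknown. The accompanying paper covers other experiments and gave no methods.

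Regions were assigned by overlap of at least 1 bp with gene bodies of the RefSeq table (GRCh38.p14). This table gives no exons, so exon and intron positions are not analysed here. Positions are counted from 1. Densities are regions per 100 kb. Strands and promoter sequences came from the RefSeq promoter table. The members and gene lists were chosen with earlier results of these data known. All 10 members were named, with protein-coding genes within 500 kb of PDZD2, genes of the wider list that differed by at least 3 regions and the 3 genes nearest PDZD2 in density. HS3ST4 and TTC28 were named after their values were seen. No test was run, since each group had 1 list. The counting code was tested on simulated lists. Alternatives were region centres, bodies extended by 5 kb, regions merged under 1 kb, list totals and other overlap rules. The tools were pandas 2.3.3, numpy 2.4.6, matplotlib 3.10.9 and scipy 1.17.1 under Python 3.11.15.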

Additional observations from a re-analysis of the deposited data

How the results depend on the processing

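No paired analysis was possible because the lists are 1 per group, which leaves no replicate to pair or to leave out. Of 55 values recomputed under other settings, 51 moved by less than their counting error or by less than 1.5 times. The 4 others were shares. With PDZD2 in 5 parts in place of 10, 80% of the parts held more regions in shHNRNPU, in place of 40%. Within 1 kb of a gene end lay 4.08% of hPSC regions, in place of 9.18% within 5 kb. With identical coordinates required, 3.06% of hPSC regions were found in shHNRNPU and 2.04% in shLUC, in place of 8.16% and 7.14% by any overlap. When counts were divided by the list totals, 7 members were higher in shHNRNPU and 3 lower, in place of 5 and 4, since MAGI1 and MAGI3 then also came out higher. The leaving out of PDZD2, which was chosen after seeing the data, gave 91, 83 and 81 regions in hPSC, shLUC and shHNRNPU. Without depth or peak heights, absence of a region from a list cannot be told apart from a signal under its calling threshold.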
